A study of Mus musculus with 12 samples.

Results

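The miRNAs of the imprinted Dlk1-Dio3 cluster were examined in RNA recovered by a pulldown of Gas5, a long noncoding RNA, from mouse hippocampal neurons. Members were chosen by name: all rows of the small RNA table for 48 precursors of the cluster, each with a 5p and a 3p arm. That gave 96 rows of the 1964 that name miRNAs. Of these, 45 were listed at 0 in all 6 small RNA libraries, 51 were above 0 in at least 1 library, and 31 had enough counts to be tested.

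The neurons came from hippocampi of newborn mice (postnatal day 0) and were grown to day in vitro 16. The 12 libraries form 4 groups of 3: antisense total RNA, sense total RNA, antisense small RNA and sense small RNA, all from that one cell source. No genotype, strain or drug treatment is given in the labels, and neither antisense nor sense is named there as the capture or as its control. Separate cultures are not mentioned for the 3 libraries of a group, so each p-value below covers the spread among the libraries at hand, and that spread may be technical.

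The Dlk1-Dio3 domain is imprinted: its noncoding RNAs, Meg3, Rian and Mirg, and the miRNAs cut from such transcripts are made from the maternal chromosome, while the protein genes Dlk1, Rtl1 and Dio3 are expressed from the paternal one. The hairpins are cut by Drosha and Dicer into a 5p and a 3p arm, and one arm, the guide, is usually kept by an Argonaute protein, where bases 2 to 8, the seed, pair with target messages. In neurons the miR-379 to miR-410 group is switched on by activity through the MEF2 factors, and miR-134, one of its members, is known for acting on Limk1 and on dendritic spines.

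All 48 hairpins were placed by RefSeq (GRCm38.p6) on the + strand of chromosome 12, from the miR-770 hairpin, which starts at 109563692, to the miR-410 hairpin, which ends at 109743795, a stretch of 180.1 kb. By place, 6 precursors lay on the Meg3 side (109563692 to 109586407), 5 in the group that lies opposite the Rtl1 coding region (109590447 to 109595388), 3 within Rian (109611500 to 109618336) and 34 on the Mirg side (109709060 to 109743795). RefSeq's gene spans held 1 hairpin in Meg3 (109540996 to 109571729), 10 in Rtl1 (109564900 to 109604418), 3 in Rian (109603945 to 109661716) and 8 in Mirg (109734981 to 109749458), and 26 lay in none of these spans. Exons and introns were not resolved, since only gene spans were used here.

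Mature sequences from RefSeq (GRCm38.p6) matched 92 of the 96 rows; miR-485-5p, miR-487b-3p, miR-376c-3p and miR-539-3p had none. The members with the highest levels are shown first, 5′ to 3′, with the seed in capitals, because most of the cluster's counts lay in them and none of them shares its seed with another of them:
miR-382-5p: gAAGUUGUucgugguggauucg
miR-379-5p: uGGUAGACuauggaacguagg
miR-434-3p: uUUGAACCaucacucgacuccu
miR-409-3p: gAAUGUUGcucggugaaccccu
miR-127-3p: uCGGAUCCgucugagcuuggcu
miR-770-3p: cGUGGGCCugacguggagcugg
miR-323-3p: cACAUUACacggucgaccucu
miR-543-3p: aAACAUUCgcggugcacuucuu
miR-668-3p: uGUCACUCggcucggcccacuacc

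The members with the lowest p-values in the comparison of antisense with sense follow, again with the seed in capitals:
miR-136-3p: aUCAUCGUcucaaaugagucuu
miR-329-3p: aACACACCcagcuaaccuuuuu
miR-409-5p: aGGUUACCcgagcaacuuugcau

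The 92 sequences held 87 different seeds, and 5 seeds were each shared by a pair of members. A single one of these pairs had both members tested, miR-379-3p and miR-411-3p, which carry the seed AUGUAAC. These mature RNAs differ by an edit distance of 2 over their length, so the division of reads between them is uncertain:
miR-379-3p: uAUGUAACaugguccacuaacu
miR-411-3p: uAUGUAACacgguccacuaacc
The abundant miR-379-5p shares its seed, GGUAGAC, with miR-1193-5p, which was not tested. miR-299a-5p lies at an edit distance of 1 from miR-299b-5p, which is no member, and its counts are uncertain for the same reason.

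Some arms for which the cluster is best known had no level at all. These mature RNAs were listed at 0 in all 6 libraries, and are shown because a reader would look for them first:
miR-134-5p: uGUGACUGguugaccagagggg
miR-410-3p: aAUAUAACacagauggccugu
miR-369-3p: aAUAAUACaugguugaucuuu
miR-541-5p: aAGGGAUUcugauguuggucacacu
A row listed at 0 is not taken as absence. The let-7g-5p, let-7i-5p, miR-22-3p, miR-24-3p, miR-103-3p, miR-125a-5p and miR-221-3p rows, picked after their values were seen and made in most tissues, were also listed at 0 in all 6 libraries, so an exact 0 in this table can be a failed estimate.

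Small RNA libraries held 3527528 to 4448328 estimated counts over all rows, of which 5.20 to 6.46% lay in miRNA rows (193501 to 258237 per library). Total RNA libraries held 5775052 to 10424167. The Gas5 row of the total RNA was lower in antisense than in sense, at 90938 ± 21187 against 623732 ± 306607 CPM (counts scaled to each library's TMM-adjusted total; SD, n = 3 each), a log2 difference of -2.78 (SE 0.286, adjusted p = 3.76e-06, edgeR). Neuron markers were present, with Map2 at a mean of 695 CPM, and so were astrocyte markers, with Gfap at 368 CPM. Of 6 neuron markers Syn1 was lower in antisense, of 5 astrocyte markers Aldh1l1 was lower, and of 4 tested microglia markers Itgam was lower and P2ry12 higher; over all 20049 tested genes edgeR called 4.35% lower and 18.2% higher. Summed neuron markers ran from 734.8 to 921.6 CPM in antisense and 926.1 to 1147 CPM in sense. Map2, at its mean of 695 CPM, made up most of that sum. Its groups did not overlap, as for 36.6% of all tested genes. Rbfox3 was apart too, while Tubb3, Snap25, Syt1 and Syn1 overlapped, with Snap25 at a log2 difference of -0.01. No sum was made without Map2, so the gap between the neuron sums is not read as one of neuron markers in general. The sums of oligodendrocyte lineage markers (255.8 to 292.9 against 295.9 to 395.8 CPM) and of vascular and fibroblast markers (62.83 to 66.53 against 67.93 to 81.11 CPM) were also lower in antisense without overlap. Summed astrocyte markers overlapped (829.3 to 1052 against 946.1 to 1243 CPM), and summed microglia markers were higher in antisense (17.47 to 19.72 against 12.33 to 15.27 CPM). Within the microglia sum P2ry12 averaged 3.98 against 0.114 CPM, and Itgam went the other way, at 2.76 against 5.31 CPM. Cx3cr1 and Csf1r overlapped between the groups. Alas2, an enzyme of red blood cell precursors, reached 15.6 CPM in antisense and was listed at 0 in sense, while no haemoglobin gene was tested. In the small RNA, the microglia and blood miRNAs searched (miR-223, miR-142a, miR-155, miR-451a and miR-144) were listed at 0 in every library. Such zeros are not read as absence, as above. Glia and oligodendrocyte miRNAs (miR-219a and miR-338) held means of 0.00587% of miRNA counts in antisense and 0.00663% in sense. The vascular and mesenchymal miRNAs searched held 0.00254% and 0.00552%. In pulldown RNA, a different recovery of marker RNA, fewer cells of a type and less RNA per cell cannot be told apart. The part of these markers in the results below was not tested.

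The cluster was well represented among the rows with counts. Of its 96 rows 53.1% were above 0, against 17.7% of the 1868 other miRNA rows. Tested members took up 14 rows of 5p arms and 17 of 3p arms, from 23 precursors; both arms were tested for 8 precursors, a single arm for 15 and no arm for 25. By place, 3 of 12 rows were tested on the Meg3 side, 5 of 10 opposite Rtl1, 1 of 6 within Rian and 22 of 68 on the Mirg side. The 20 rows above 0 that were not tested held few counts, and no single library held more than 17.0 counts in any such row. The most abundant of them was miR-433-5p, with 60.7 counts over all 6 libraries. That was more than the tested miR-299a-5p (55.1) and miR-341-5p (51.3) held, so the filter did not follow total counts alone.

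The highest member was miR-382-5p, from a hairpin just upstream of Mirg. It stood at 5143, 5239 and 3586 CPM in antisense 1, 2 and 3 and at 4695, 4057 and 3785 CPM in sense 1, 2 and 3. The groups overlapped, and its log2 difference, antisense minus sense, was 0.16 (SE 0.197, 95% interval -0.27 to 0.59). It ranked 19 of the 158 tested miRNAs by mean CPM. Mature miRNAs of this cluster are 19 to 26 bases long, so these levels are compared without a correction for length, and capture or ligation bias between sequences was not measured.

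Next came miR-379-5p, the founding member of the activity-regulated group, at 3931, 4278 and 3711 CPM in antisense and 2940.4, 4709 and 5059 CPM in sense. Sense 1 was the lowest library and sense 3 the highest, so the groups overlapped, with a log2 difference of -0.09 (SE 0.215, 95% interval -0.56 to 0.38). miR-487b-3p, from the middle of the Mirg-side group, stood at 2166, 2781 and 2698 CPM in antisense and 3393, 3048 and 2843 CPM in sense. All 3 sense libraries lay above all 3 antisense libraries, but the log2 difference of -0.28 (SE 0.179) did not pass the test (adjusted p = 0.678, edgeR).

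The group opposite Rtl1 gave miR-434-3p and miR-127-3p to the highest members. miR-434-3p read 2009, 2121 and 1625 CPM in antisense and 2552, 1899 and 1581 CPM in sense, with overlap and a log2 difference of -0.07 (SE 0.213). miR-127-3p, a guide arm perfectly complementary to the Rtl1 message, read 1828, 1754 and 2151 CPM in antisense and 1621, 1624 and 1477 CPM in sense. Every antisense library was above every sense library for miR-127-3p, and the log2 difference of 0.28 (SE 0.173, 95% interval -0.10 to 0.66) did not pass the test (adjusted p = 0.678, edgeR).

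miR-409-3p, from a hairpin within Mirg, stood at 1364, 1563 and 2327 CPM in antisense and 1811, 1970.15 and 1981 CPM in sense. Its spread was 29.0% of the mean in antisense and 4.95% in sense, and antisense 3 was the highest of the 6 libraries. miR-770-3p, from the one precursor within the Meg3 span, stood at 1227, 1112 and 1284 CPM in antisense and 1242, 1431 and 1441 CPM in sense, with overlap and a log2 difference of -0.18 (SE 0.173). miR-323-3p stood at 988, 1249 and 1033 CPM in antisense and 1306, 1273 and 1110.05 CPM in sense. It overlapped too, at -0.17 (SE 0.181).

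The last of the 10 highest were miR-543-3p, at 601, 717 and 572 CPM in antisense and 793, 584 and 511 CPM in sense, and miR-668-3p, at 797, 549 and 717 CPM in antisense and 698, 606 and 371 CPM in sense. Sense 1 was the highest library for miR-543-3p and sense 3 the lowest for both. Their log2 differences were 0.00 (SE 0.213) and 0.30 (SE 0.250), with overlapping groups. In this order of levels, neighbours overlapped over the 6 libraries except at 2 steps: the lowest library of miR-127-3p (1477 CPM) lay above the highest of miR-770-3p (1441 CPM), and the lowest of miR-323-3p (988 CPM) above the highest of miR-543-3p (793 CPM). The 10 together held 83.01% ± 0.669 of the cluster's counts in antisense and 81.9% ± 0.6 in sense (SD, n = 3).

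**Figure D1:**
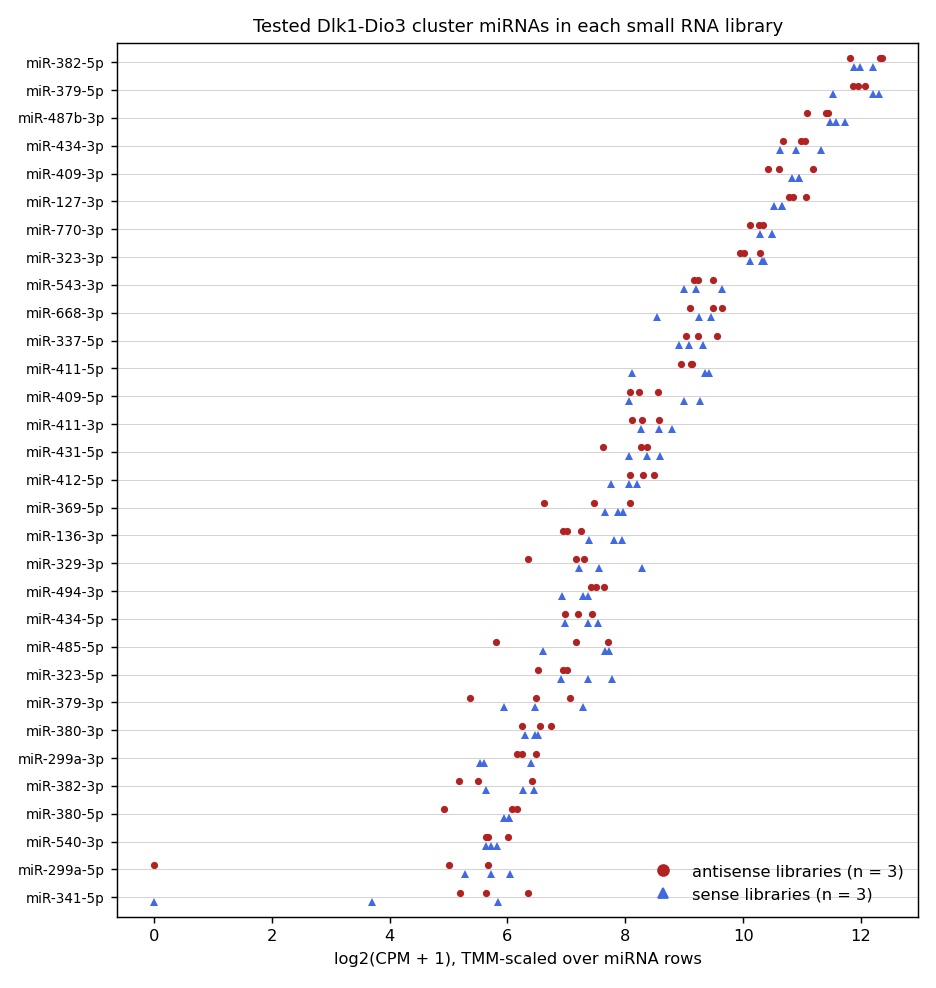
Each point is 1 small RNA library, with log2(CPM + 1) on the horizontal axis and the 31 tested members ordered by mean level; circles are antisense and triangles sense. The widest spreads belong to the scarce miR-341-5p and miR-299a-5p, and the points at 0 are antisense 1 for miR-299a-5p and sense 1 for miR-341-5p. Spread does not follow level throughout: in antisense it was 29.0% of the mean for miR-409-3p and 15.1% for the scarce miR-540-3p.

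No cluster miRNA passed the test between antisense and sense. edgeR's quasi-likelihood test called 0 of the 31 tested members at an adjusted p under 0.05, beside 0 of all 158 tested miRNAs (0%), and DESeq2 also called 0. At an unadjusted p under 0.05 the members had 1 of 31 by edgeR, lower in antisense, and 0 by DESeq2. All miRNAs had 18 of 158 by edgeR (11.4%; 5.7% lower in antisense) and 13 of 158 by DESeq2. Groups did not overlap for 4 of 31 members, 12.9%, which is near the 15.8% found over all tested miRNAs. These were miR-127-3p and miR-494-3p, above sense in all antisense libraries (8.23% of all tested miRNAs), and miR-136-3p and miR-487b-3p, below it (7.59%). The authors' deposited table for small RNA, which holds 50 of the 96 rows, gave no member an adjusted p under 0.05, and its lowest among members was 0.982.

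The lowest p-value belonged to miR-136-3p, from the hairpin at 109595327 to 109595388 opposite Rtl1. Its level was 122, 128 and 150.4 CPM in antisense and 246, 166 and 224 CPM in sense. All sense libraries were above all antisense libraries, and the log2 difference was -0.66 (SE 0.260, 95% interval -1.23 to -0.09) with an unadjusted p of 0.0269 and an adjusted p of 0.354 by edgeR. The other arm of that hairpin, miR-136-5p, was listed at 0.

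miR-329-3p, a Mirg-side member, stood at 156, 142 and 80.2 CPM in antisense and 310.4, 147 and 188 CPM in sense. Antisense 1 exceeded sense 2, so the groups overlapped, and the log2 difference was -0.76 (SE 0.346, adjusted p = 0.402, edgeR). miR-409-5p, the minor arm of its hairpin, stood at 298, 270.2 and 376 CPM in antisense and 612, 267 and 507 CPM in sense. Sense 2 was the lowest of the 6, and the log2 difference of -0.55 (SE 0.290) did not pass the test (adjusted p = 0.50, edgeR). Single libraries moved both values, by edgeR from -1.01 without antisense 1 to -0.38 without sense 1 for miR-329-3p and from -0.84 without sense 2 to -0.29 without sense 1 for miR-409-5p. miR-494-3p, the remaining member whose groups did not overlap, stood at 181, 199 and 171 CPM in antisense and 155, 121 and 164 CPM in sense, a log2 difference of 0.33 (SE 0.251).

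Over the 31 members the log2 differences ran from -0.91 to 1.18, with a median of -0.13; 20 were below 0 and 11 above. Over all 158 tested miRNAs the median was -0.02, with 82 below 0 and 76 above. Both ends of the members' range belonged to scarce rows with a library at 0. miR-341-5p, the only tested member within Rian, stood at 48.9, 35.4 and 80.2 CPM in antisense and 0, 56.5 and 12 CPM in sense. miR-299a-5p stood at 0, 31.0 and 50.1 CPM in antisense and 64.7, 37.7 and 51.9 CPM in sense. The groups overlapped for both, and the intervals were wide, -0.61 to 2.97 and -2.51 to 0.70. Leaving out 1 library gave -1.63 (without antisense 3) to -0.41 (without antisense 1) for miR-299a-5p.

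The size of difference that these libraries leave possible varied with level. The 95% interval lay within a 2-fold change in either direction (log2 of -1 to 1) for 19 of 31 members, 61.3%, and for 63.3% of all tested miRNAs. For miR-382-5p, miR-379-5p, miR-487b-3p, miR-434-3p, miR-409-3p and miR-127-3p the intervals lay between -0.67 and 0.66. For the members not among those 19 the interval reached past a 2-fold change on at least 1 side. Sense 1 was the highest library for 11 of the 31 members and antisense 3 for 7, while antisense 1 and antisense 3 were each the lowest for 7.

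**Figure D2:**
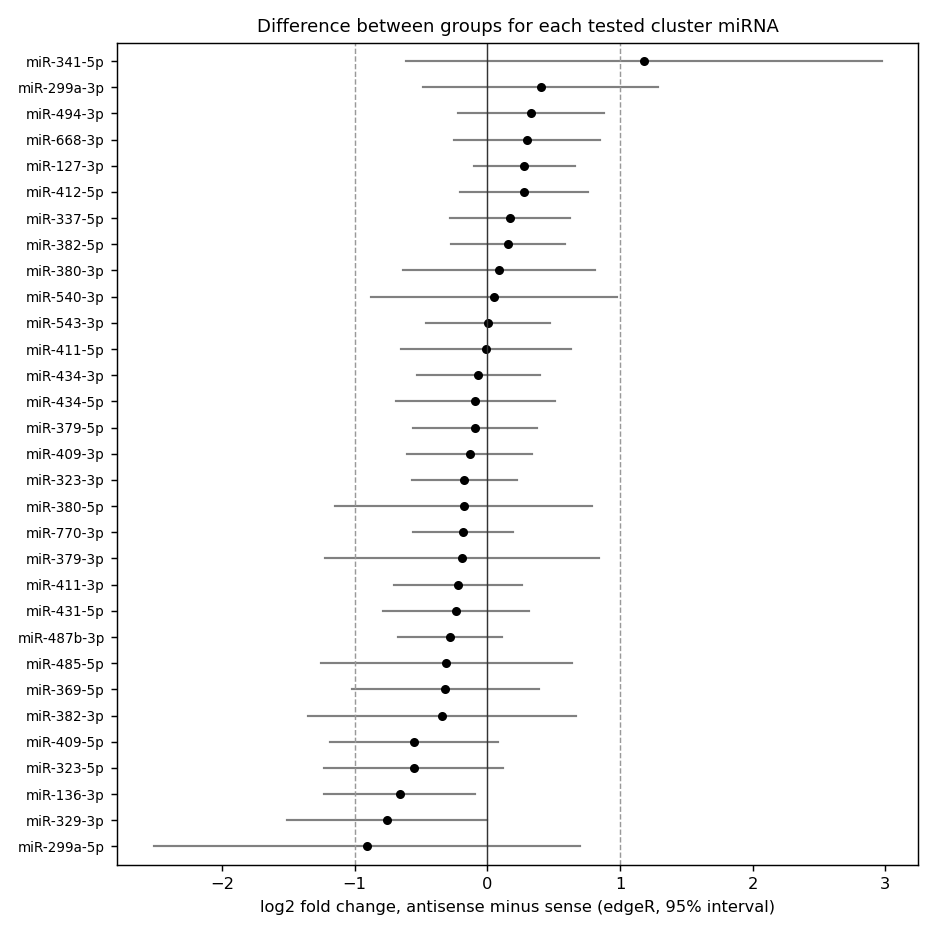
Points give the log2 fold change, antisense minus sense, of each tested member and lines its 95% interval from edgeR (3 libraries a group); dashed lines mark a 2-fold change. The interval of miR-136-3p alone lies wholly on one side of 0, from -1.23 to -0.09, and no member passed after adjustment over 158 miRNAs.

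As a share of all miRNA counts, the cluster was small and a little lower in antisense. It held 2.19% (95% exact Clopper-Pearson interval 2.13 to 2.25), 2.24% (2.18 to 2.30) and 2.47% (2.40 to 2.54) in antisense 1, 2 and 3. In sense 1, 2 and 3 it held 2.68% (2.61 to 2.74), 2.78% (2.71 to 2.84) and 2.66% (2.59 to 2.72). Every sense library was above every antisense library, with means of 2.30% ± 0.148 and 2.70% ± 0.0645 (SD, n = 3), and no test was made of this sum over members. Scaled by totals over miRNA rows, the median log2 difference was -0.20 over all 158 tested miRNAs and -0.29 over the tested members. A lower value in antisense on this scale was thus not particular to the cluster. The Clopper-Pearson intervals treat each estimated count as an independent read and leave out the spread between libraries. Molecular identifiers are not described, so copies of one molecule could not be set aside and these intervals may be too narrow.

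A share has all other miRNAs in its denominator, and let-7 was a large part of it, at 47.4 to 58.4% of miRNA counts over the 6 libraries. Its mean was 54.4% ± 6.08 in antisense and 52.2% ± 3.69 in sense (SD, n = 3). The neuron-enriched miR-124, miR-9, miR-128, miR-138 and miR-132 together held 21.9% ± 2.94 and 21.9% ± 3.70. As a share of all rows of the small RNA table the cluster came to 0.137% ± 0.00836 in antisense and 0.151% ± 0.00839 in sense. On that denominator antisense 2, at 0.145%, lay above sense 1, at 0.142%, so the groups overlapped. Without miR-382-5p the shares of miRNA counts were 1.87% and 2.26%.

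Within the cluster the Mirg side held 73.9% ± 1.65 of the counts in antisense and 75.1% ± 1.10 in sense. The group opposite Rtl1 held 18.2% ± 0.799 and 17.0% ± 1.85, from 5 of the 48 precursors. The Meg3 side held 7.72% ± 0.944 and 7.80% ± 0.747, nearly all in miR-770-3p and miR-337-5p, and the Rian side 0.249% and 0.145%. Each of these ranges overlapped between antisense and sense. Neighbouring hairpins differed widely in level: the miR-379, miR-411 and miR-299a hairpins start 145.4, 146.5 and 146.9 kb from the start of the miR-770 hairpin, and miR-379-5p averaged 4105 CPM against 39.2 CPM for miR-299a-5p.

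**Figure D3:**
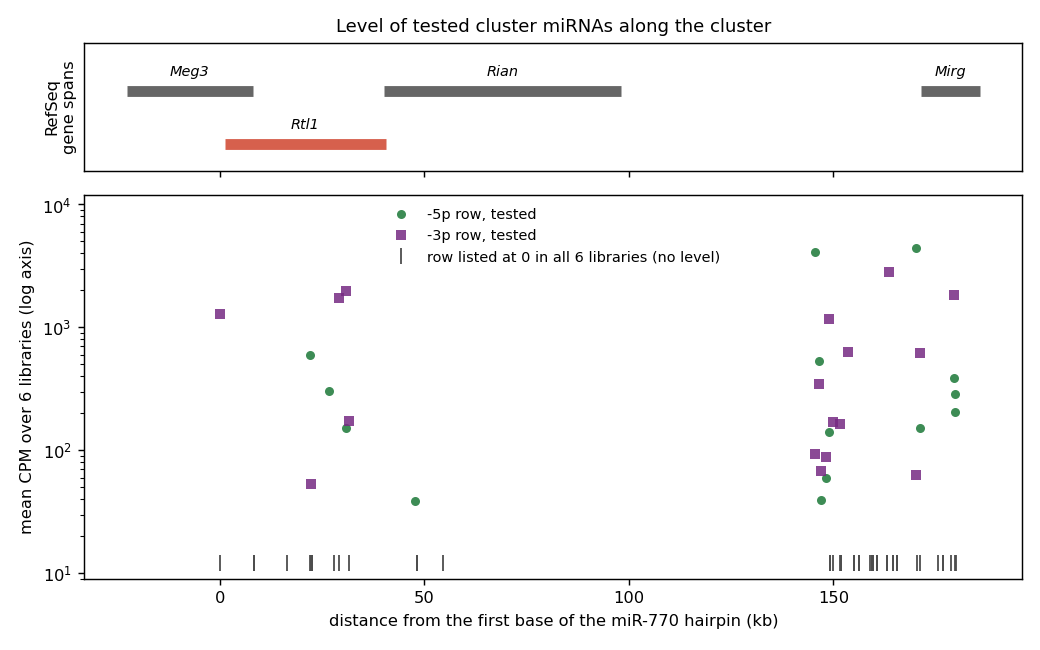
The lower panel plots the mean CPM over 6 libraries (log axis) of each tested arm against the distance of its hairpin from the start of the miR-770 hairpin in kb, with ticks for rows listed at 0; the upper panel draws RefSeq gene spans. Tested members fall into a group near Meg3 and Rtl1 and a group from 145.4 to 179.7 kb, with a wide range of levels in each, and miR-341-5p lies between them at 47.8 kb, within Rian.

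Arm usage separated the hairpins far more than the libraries. Over the 48 precursors the 3p arm held more counts in 22, the 5p arm in 12, and both arms were at 0 in 14. For 17 precursors a single arm was at 0, and 9 of the 31 tested members, among them miR-127-3p, miR-770-3p and miR-668-3p, had the opposite arm listed at 0 throughout. Given the zeros described above, those arms are not read as unused.

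Of the 8 precursors with both arms tested, 3 favoured the 5p arm and 5 the 3p arm. The 5p share of miR-382 was 98.9% ± 0.442 in antisense and 98.3% ± 0.391 in sense, and that of miR-379 was 97.9% ± 0.970 and 97.4% ± 2.04. At the other end, miR-434 gave 7.14% ± 0.735 and 7.48% ± 2.51, and miR-323 gave 9.40% ± 1.52 and 11.8% ± 2.52.

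miR-409 had a 5p share of 15.5% ± 2.21 in antisense and 19.2% ± 6.76 in sense. The remaining hairpins used both arms: miR-411 at 62.5% ± 5.30 and 56.8% ± 13.4, miR-380 at 36.7% ± 11.4 and 42.2% ± 1.0, and miR-299a at 23.6% ± 21.1 and 47.1% ± 9.83. The wide spread of miR-411 in sense came with sense 1, at 41.9%, against 60.6% and 67.9% in sense 2 and sense 3. For 0 of the 8 hairpins were the antisense and sense shares apart. No test was run on the shares.

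**Figure D4:**
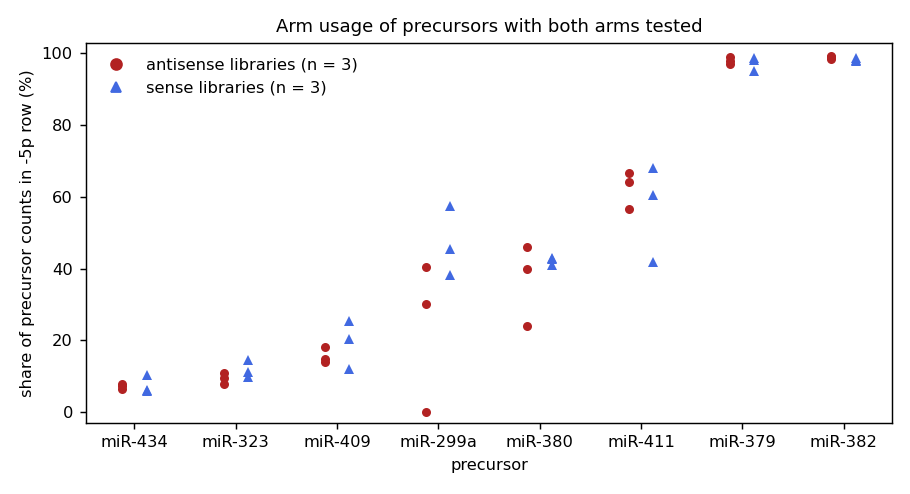
For the 8 precursors with both arms tested, the vertical axis gives the percentage of the precursor's counts in the 5p row, 1 point a library, circles for antisense and triangles for sense. miR-434 and miR-323 stay at or below 14.6% and miR-379 and miR-382 at or above 95.01%, and the groups overlap for every precursor.

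The scarcer arms of those 8 hairpins were the least precise. miR-379-3p ran from 40.1 to 155 CPM over the 6 libraries, miR-382-3p from 35.1 to 86.2 CPM and miR-380-5p from 29.3 to 70.2 CPM. Their log2 differences were -0.19 (SE 0.471), -0.34 (SE 0.461) and -0.18 (SE 0.443), each with an interval wider than a 2-fold change on at least 1 side. The better measured minor arms were miR-434-5p, at 125 to 184 CPM with a log2 difference of -0.09 (SE 0.273), and miR-411-3p, at 276 to 441 CPM with -0.22 (SE 0.221). miR-323-5p, at 90.3 to 218 CPM, gave -0.56 (SE 0.309). miR-380-3p gave 0.09 (SE 0.331) and miR-299a-3p 0.40 (SE 0.405). miR-411-5p, the major arm of its hairpin, stood at 494, 558 and 552 CPM in antisense and 276, 682 and 651 CPM in sense, a log2 difference of -0.01 (SE 0.292).

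With the arms of each precursor summed, 23 precursors were tested and edgeR called 0. miR-136 and miR-329 again had the lowest p-values, at log2 differences of -0.71 (SE 0.258, adjusted p = 0.227) and -0.80 (SE 0.335, adjusted p = 0.330). The unadjusted p was under 0.05 for those 2 precursors.

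The transcripts that carry the cluster were measured in the total RNA, where 22.6% of 20049 tested genes were called by edgeR, 18.2% higher and 4.35% lower in antisense. Of 9 genes of the domain and its flanks 7 were tested, and a single one, Rtl1, passed. Rtl1, a paternally expressed gene derived from a retrotransposon, had estimated counts of 351, 391 and 359 in antisense and 1.98, 2.05 and 3.03 in sense. That is 48.2 ± 2.03 CPM against 0.381 ± 0.115 CPM (SD, n = 3), with no overlap, as for 36.6% of all tested genes. The log2 difference was 6.93 (SE 0.219, adjusted p = 7.78e-11, edgeR), and it lay between 6.80 and 7.66 under the alternatives run, each with a call. Rtl1 in the authors' deposited table had a log2 fold change of -7.21, the sign being that of sense over antisense as coded there.

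The noncoding hosts did not pass the test on the TMM scale. Meg3, the maternally expressed RNA that starts the miRNA-bearing stretch, read 1105, 1126 and 852 CPM in antisense and 1159, 1148 and 1231 CPM in sense. Every sense library was above every antisense library, but the log2 difference of -0.20 (SE 0.109) did not pass (adjusted p = 0.227, edgeR). Rian, which also hosts snoRNAs, had -0.08 (SE 0.110, adjusted p = 0.682) at means of 950.5 and 1002 CPM, and Mirg had -0.09 (SE 0.115, adjusted p = 0.634) at 81.8 and 87.1 CPM.

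Dlk1, the gene that names one end of the domain, was scarce, at 1.27 ± 0.281 CPM against 2.21 ± 0.186 CPM in sense (SD, n = 3), with groups apart and a log2 difference of -0.79 (SE 0.357, adjusted p = 0.138). The flanking genes Begain and Wdr25 had 0.10 (SE 0.214) and -0.02 (SE 0.205), and Dio3 and Dio3os had too few counts to be tested. Scaling by library totals alone, without TMM, moved the median of all genes from -0.01 to 0.69 and turned Meg3, Rian, Mirg and Wdr25 above 0, at 0.50, 0.62, 0.61 and 0.66. On that scale edgeR called 12581 of 20049 tested genes higher in antisense and 63 lower, beside a median of 0.69 over all genes. Rian (adjusted p = 0.0232), Mirg (0.0225), Wdr25 (0.0399) and Begain (0.0218) were among those called higher by edgeR, and Meg3 was not (0.0611). Library totals include Gas5, with 5954870, 2116204 and 3502645 counts of 10424167, 6478779 and 7594951 in sense 1, 2 and 3. In antisense 1, 2 and 3 Gas5 had 564204, 893566 and 626081 of 5813061, 6293093 and 5775052. With Gas5 left out before TMM, the median of all genes was -0.005 and Rtl1 alone of the domain genes was called. The part of Gas5 in the shift of the median was not tested. Whether counting used strand is not given in the sources used here, and the Rtl1 span holds 10 of the cluster's hairpins, so reads of Rtl1 and of RNA from the other strand cannot be told apart. None of the 5 tested miRNAs opposite Rtl1 passed the test: miR-127-3p, miR-434-3p, miR-434-5p and miR-431-5p had log2 differences between -0.24 and 0.28, and miR-136-3p had -0.66.

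**Figure D5:**
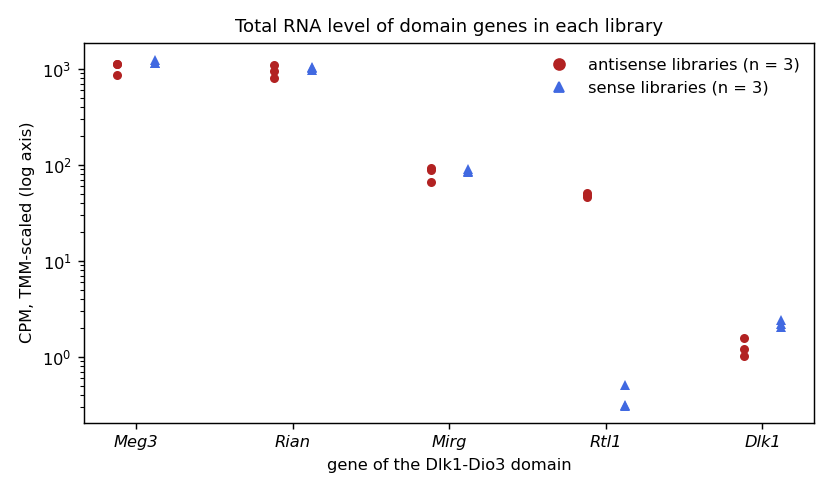
Each point is 1 total RNA library, with TMM-scaled CPM on a log axis for 5 genes of the domain, circles for antisense and triangles for sense. Rtl1 lies near 48.2 CPM in antisense and below 1 CPM in sense. Within each of Meg3, Rian and Mirg the antisense and sense points lie close to each other, though those of Meg3 do not overlap. The means over all libraries were 1104 CPM for Meg3, 976 CPM for Rian and 84.5 CPM for Mirg.

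Rows named for the cluster's hairpins were also present in the total RNA table, for all 48 precursors. They held few counts: 42 were above 0, the median sum over 6 libraries was 12 counts, and no library held more than 25 counts in any of them. One, Mir1188 within Rian, was tested, with 13, 17 and 13 counts in antisense and 14, 25 and 14 in sense, and a log2 difference of -0.59 (adjusted p = 0.263, edgeR).

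Gene lists tied to the cluster were read from the same fit. Of 3 MEF2 factors, which drive the miR-379 to miR-410 group, Mef2c was higher in antisense, at 77.8 ± 1.93 against 52.2 ± 3.20 CPM (SD, n = 3) and a log2 difference of 0.58 (SE 0.092, adjusted p = 1.86e-04, edgeR). Mef2a and Mef2d did not pass, at 0.16 and -0.25. The median of the list was 0.16, against -0.01 over all genes, of which 18.2% were called higher.

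Of 10 genes of miRNA processing and silencing, Drosha and Xpo5 were lower in antisense, beside 4.35% of all tested genes, and the other 8 did not pass. The median log2 difference of the list was -0.15, against -0.01 over all genes. Drosha, which makes the first cut of a hairpin, stood at 74.2 ± 4.15 against 96.8 ± 6.91 CPM (SD, n = 3), a log2 difference of -0.38 (SE 0.094, adjusted p = 0.00677, edgeR). Xpo5, which carries hairpins out of the nucleus, stood at 54.7 ± 3.25 against 71.2 ± 10.5 CPM, also -0.38 (SE 0.113, adjusted p = 0.0241, edgeR). Dicer1 had -0.05 (SE 0.084) and Ago2 -0.19 (SE 0.088). Scaled by library totals, Drosha and Xpo5 turned to 0.33 and 0.35, below the median of all genes on that scale, and Xpo5 lost its call without antisense 2, antisense 3, sense 1 or sense 3 (-0.37, -0.35, -0.33 and -0.33).

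Of 3 known targets of cluster miRNAs, Sv2a, a synaptic vesicle protein targeted by miR-485, was lower in antisense, at 31.0 ± 7.21 against 46.7 ± 10.3 CPM (SD, n = 3), a log2 difference of -0.59 (SE 0.173, adjusted p = 0.0227, edgeR). Its groups overlapped, its call was lost without antisense 3, sense 1 or sense 3 (-0.42, -0.42 and -0.61), and library totals turned it to 0.16. Limk1 and Pum2, targets of miR-134, had -0.07 (SE 0.168) and -0.20 (SE 0.095) and did not pass. The median of these 3 genes was -0.20, against -0.01 over all genes, of which 4.35% were called lower. Of the miRNAs that target them, miR-485-5p stood at 142, 208 and 55.2 CPM in antisense and 211, 199.7 and 95.8 CPM in sense, a log2 difference of -0.31 (SE 0.431), and miR-134-5p was listed at 0.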

How the data were processed

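Total RNA and small RNA of 6 libraries each were measured. The submitters' processing notes name Salmon, DESeq and GRCm38, without version or role. The use of strand in counting, the index and the kit: not given in the sources used here. The authors deposited estimated counts per gene (total RNA) and per miRNA or transcript (small RNA). The authors' deposited comparison tables hold log2 fold changes (with errors), p-values, adjusted p-values, and a signal per row (the mean of all libraries) and a Wald score that were not used here.

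Counts were rounded, filtered with filterByExpr (minimum count 10), scaled by TMM (small RNA: over miRNA rows) and compared as antisense minus sense with edgeR 4.0.16 (quasi-likelihood F test, two-sided, R 4.3.3), all miRNA rows or all genes in one fit, with Benjamini-Hochberg adjustment at 0.05. CPM are these scaled counts. DESeq2 1.42.0 was an alternative, besides other scalings, filters, summed arms, a replicate block and leaving out each library. Fits were tested on simulated data. Named members were any that passed, the 10 highest, the 3 with the lowest p where none passed, those with both arms tested, tested domain genes and called genes of other lists; miR-494-3p, miR-341-5p, miR-431-5p, miR-337-5p, miR-433-5p, miR-485-5p, Mir1188, the named rows at 0, Map2, Gfap and the named genes of lists that did not pass were added after their values were seen. Members and lists were chosen with earlier results of these data known. Small RNA totals are given over miRNA rows; transcript identifiers besides miRNAs were not used here.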

Additional observations from a re-analysis of the deposited data

How the results depend on the processing

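With 3 libraries a group the smallest changes are out of reach for scarce arms, and rows listed at 0 allow no statement. Cluster members called stayed at 0 under every alternative run. Over all tested miRNAs the count was 0, except 6 with no filter on low counts and 0 to 2 when 1 library was left out (2 without sense replicate 1); none of those was a member. The median log2 difference of the members was -0.13, -0.29 with totals over miRNA rows, -0.24 with totals over all rows, -0.30 with TMM on all rows and 0.01 without antisense replicate 3 (15 of 32 below 0); all tested miRNAs had -0.20 with totals over miRNA rows, -0.11 with totals over all rows and -0.158 with TMM on all rows. The share of miRNA counts in the cluster differed by -0.40 percentage points (antisense minus sense), by -0.0139 with all rows as denominator, and by -0.486 to -0.347 when 1 library was left out. In the total RNA 1 domain gene was called, also with Gas5 left out before TMM, and 5 with library totals. There the median of all genes moved and 12581 of 20049 tested genes were called higher.

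Small log2 differences turned sign, in members that passed no test; the cause was not tested. miR-543-3p became -0.1816 with totals over miRNA rows, -0.0714 with totals over all rows, -0.128 with TMM on all rows, -0.00977 with no filter and -0.0838 with a minimum count of 50. miR-380-3p became -0.0884, -0.00469 and -0.0577 under those 3 scalings, and miR-382-5p -0.0385 with totals over miRNA rows. With 1 library left out, the values ran from -0.1377 to 0.2167 for miR-543-3p, -0.3533 to 0.0524 for miR-380-5p, -0.2244 to 0.1607 for miR-434-3p, -0.5976 to 0.2644 for miR-379-3p, -0.3075 to 0.2103 for miR-411-5p, -0.2753 to 0.0511 for miR-434-5p and -0.2824 to 0.0463 for miR-379-5p. With library totals Meg3, Rian, Mirg, Wdr25, Drosha, Xpo5 and Sv2a became 0.4999, 0.6239, 0.6106, 0.6634, 0.3327, 0.3518 and 0.1622. Rian, Mirg, Wdr25 and Begain (0.8207) passed the test, beside 12581 of 20049 tested genes called higher. Wdr25 became 0.0142 with a minimum count of 50. With 1 library left out, Wdr25 ran from -0.2809 to 0.0882, Rian from -0.1994 to 0.0309, Mirg from -0.1841 to 0.0355 and Begain from -0.0109 to 0.2648.

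Deviations of same-numbered libraries correlated at -0.135, -0.197 and -0.0278 in small RNA and 0.0771, -0.0994 and -0.0103 in total RNA. Differently numbered libraries ran from -0.17 to 0.264 in small RNA and from -0.177 to 0.185 in total RNA. With 3 libraries a group, these values cannot decide whether replicate numbers pair the libraries. With the replicate block 0 miRNAs and 0 members were called, 19 and 2 at an unadjusted p under 0.05, miR-411-5p became 0.0721, and Rtl1 was again the 1 domain gene called.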
